A study of Rattus norvegicus with 29 samples.

Results

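Epithelial cells of the rat renal proximal tubule, kept in primary culture, were exposed to TCDD or to trichloroethylene for 6 h or left as controls for the same time, and their RNA was sequenced. The 3 TCDD and the 3 trichloroethylene libraries were treated as 1 group of 6 and set against the 2 control libraries of that time (replicates 2 and 3). The contrast was thus between 8 of the 29 libraries of the series, while the main fit took its filter, scaling and spread from all 29. Members were chosen by the compound and the time in the sample titles. The question was whether the larger group showed an early change that neither compound showed alone, and whether such a change depended on transcript length. The other libraries set beside it were exposed to acetaminophen or gentamicin for 6 h, or were the TCDD, trichloroethylene and control libraries of 24 h, with 3 libraries in each group. The acetaminophen and gentamicin libraries of 24 h, also 3 each, entered the main fit. The labels record no strain, age or sex of the donor rats, and the sources used here give neither dose nor vehicle. The labels do not say whether libraries of a group stem from different animals or dishes. The p-values therefore measure only the spread between these libraries, which may be technical.

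TCDD is a dioxin and a ligand of the aryl hydrocarbon receptor, a transcription factor of the cytoplasm that then moves to the nucleus and induces genes of foreign-compound metabolism, with Cyp1a1 as the classical target. Trichloroethylene is an industrial solvent whose toxicity to the kidney is tied to conjugation with glutathione, after which enzymes of the proximal tubule cell process the conjugate into reactive thiols. The proximal tubule takes up many drugs and toxins from blood and filtrate and is a common site of injury by them. The files give transcript identifiers without gene names, so neither the cell type nor the targets of the receptor could be looked up here, and the response is described by transcript class and by 4 transcripts named by identifier.

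Totals of the 8 libraries ran from 8243698 to 10566202 estimated counts. Of 28420 transcripts in the tables, 15990 passed the filter on low counts. TCDD replicate 3 stood apart from the other 2 TCDD libraries: a chi-square test of its counts against theirs gave 12 and 14.2 per degree of freedom, beside 3.52 between those 2, 3.34 to 7.12 among trichloroethylene libraries and 3.07 between the controls. On the first component of log2(CPM + 1), which held 33.1% of the variance, TCDD replicate 3 lay at 23.9. The other TCDD libraries lay at -16.3 and -16.9, the trichloroethylene libraries at 17.8, 28.6 and 1.71, and the controls at -21.8 and -17. The first component thus separated libraries within TCDD, and although both controls had the lowest values, TCDD replicates 1 and 2 lay next to control replicate 3. On the second component, with 15.1% of the variance, the TCDD libraries lay at 14.7, 23 and 8.06, the trichloroethylene libraries at -6.02, -1.41 and -7.58, and both controls lower, at -15.4 and -15.3. The pooled count, the length difference, the slopes and the named changes below were also computed without TCDD replicate 3.

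**Figure D1:**
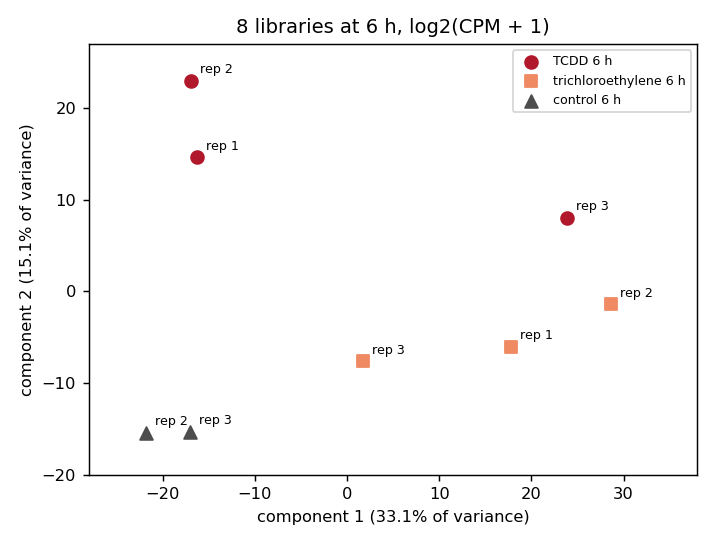
First and second principal components of log2(CPM + 1) over the 15990 tested transcripts, 1 point per library, for TCDD (circles), trichloroethylene (squares) and control (triangles) at 6 h. TCDD replicate 3 sits among the trichloroethylene libraries on the first component (33.1% of variance), while the 2 controls have the lowest values of the second (15.1%).

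Pooling the compounds showed no early change that passed the test. Of the 15990 transcripts, 0 (0%) were called between the 6 exposed libraries and the 2 controls at a Benjamini-Hochberg adjusted p under 0.05 in edgeR's quasi-likelihood test, and the smallest adjusted p was 0.28. TCDD alone also gave 0 calls (smallest adjusted p 0.7 in edgeR), and so did trichloroethylene alone (0.13). The number of transcripts called for the pooled libraries and for neither compound alone was therefore 0. Before adjustment, a p under 0.05 was reached by 1550 transcripts (9.69%) in the pooled comparison, 899 higher (5.62%) and 651 lower (4.07%), beside 1124 (7.03%) for TCDD alone and 2070 (12.9%) for trichloroethylene alone. All 3 comparisons share the 2 controls, so these counts are not independent of each other.

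The larger group narrowed the error only a little. Log2 changes had a median SE of 0.159 with the 6 libraries pooled and 0.175 for either compound alone, while the median absolute log2 change was 0.161 for the pooled libraries, 0.16 for TCDD and 0.196 for trichloroethylene. Changes over 2-fold numbered 946 of 15990 in the pooled comparison, 679 higher and 267 lower, and none of them passed. TCDD alone had 1007 such changes, trichloroethylene alone 1095, and TCDD against trichloroethylene 827. TCDD and trichloroethylene were not told apart from each other either: edgeR called 0 transcripts between them, in a comparison that uses no control library. There, 1432 (8.96%) had an unadjusted p under 0.05, beside 9.69% in the pooled comparison.

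The same controls gave many calls for the other compounds at 6 h. Acetaminophen changed 7799 transcripts (48.8% of those tested) and gentamicin 2113 (13.2%), with median SEs of 0.176 and 0.175. Set directly against gentamicin, with no control in the comparison, the 6 pooled libraries differed in 3312 transcripts (20.7%), 1487 higher and 1825 lower. Against acetaminophen they differed in 9699 (60.7%). Fewer cells of a type and less RNA per cell cannot be told apart in these bulk libraries.

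Other ways of testing gave between 0 and 15 pooled calls. DESeq2 called 15 transcripts (0.0939% of 15982), all of them higher in the exposed libraries, and 7 of the 15 had no count in at least 1 control library. Of these 15, 5 were called by DESeq2 for neither compound alone. With only the 8 libraries in the edgeR fit, 1 transcript (0.00701%) passed, described below. Without TCDD replicate 1 the edgeR count was 8 (0.0501%), all lower in the exposed libraries, with a median log2 change of -6.49. Of these transcripts, 7 had under 10 counts in at least 1 library, TCDD replicate 1 included, and 0 had no count in a control. A fall of that size itself brings low counts in exposed libraries. Without TCDD replicate 3 the edgeR count was 0.

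For trichloroethylene alone the count depended on which libraries entered the fit, and the added calls followed transcript length. With only the 5 libraries of that comparison, an alternative chosen after the data were seen, edgeR called 450 transcripts (3.22% of 13988), 146 higher and 304 lower. Of the 146 higher, 54 were between 2000 and 4000 bases long and 64 over 4000. In the main fit these classes held 5853 and 2235 of the 15990 tested transcripts. Beside that background, only the class over 4000 bases was over-represented among the higher calls. Of the 304 lower, 56 were under 500 bases and 124 between 500 and 1000, classes that held 657 and 1849 transcripts in the main fit. When the median deviation of each library within 20 length bins was taken out, 120 (0.858%) were called, 45 higher and 75 lower. The lower calls were still short, with a median of 851 bases beside 857.5 before. The higher calls had a median of 1983 bases beside 3660 before. With the effective length of each library as an offset, 330 (2.36%) were called, with median lengths of 3597 bases for the higher and 844 for the lower. The edgeR fit of only the 5 TCDD and control libraries, also added after the data were seen, gave 0 calls for TCDD.

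Transcript length was therefore examined across the whole pooled comparison. An estimated count is the number of fragments assigned to a transcript, so at the same number of molecules a longer transcript gives more fragments, and a difference between libraries that acts by length shifts whole length classes at once. In the pooled comparison short transcripts were lower and long ones higher. The median log2 change was -0.13 for the 657 tested transcripts under 500 bases, -0.15 for the 1849 of 500 to 1000 bases and -0.04 for the 5396 of 1000 to 2000 bases. It was 0.06 for the 5853 of 2000 to 4000 bases and 0.15 for the 2235 over 4000 bases, of which 84.1% had a positive change. The median of the shortest class was thus 0.285 below that of the longest on the log2 scale, beside a median absolute change of 0.161 for single transcripts.

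Each compound alone had the same order of classes as the pooled libraries. TCDD gave a median of -0.11 under 500 bases and 0.15 over 4000 bases, and trichloroethylene -0.158 and 0.155 in those classes, again beside shared controls. Between TCDD and trichloroethylene, which share no library, the medians stayed between 0 and 0.04 in all 5 classes. Without TCDD replicate 3 the difference between the shortest and the longest class was -0.258, and over all left-out libraries it ran from -0.236 to -0.32.

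Other comparisons that use the 6 h controls were set beside it. Gentamicin at 6 h had medians of -0.05 under 500 bases and 0.11 over 4000, and the controls of 24 h, set against those of 6 h (3985 transcripts called, 24.9%), had -0.16 and 0.26. Acetaminophen at 6 h had the opposite order, with 0.08 and -0.03. Without any control in the comparison, the pooled libraries minus the gentamicin libraries gave -0.05 under 500 bases and 0.05 over 4000. The pooled libraries minus the acetaminophen libraries of 6 h, also without a control, gave -0.192 and 0.212 in those classes.

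**Figure D2:**
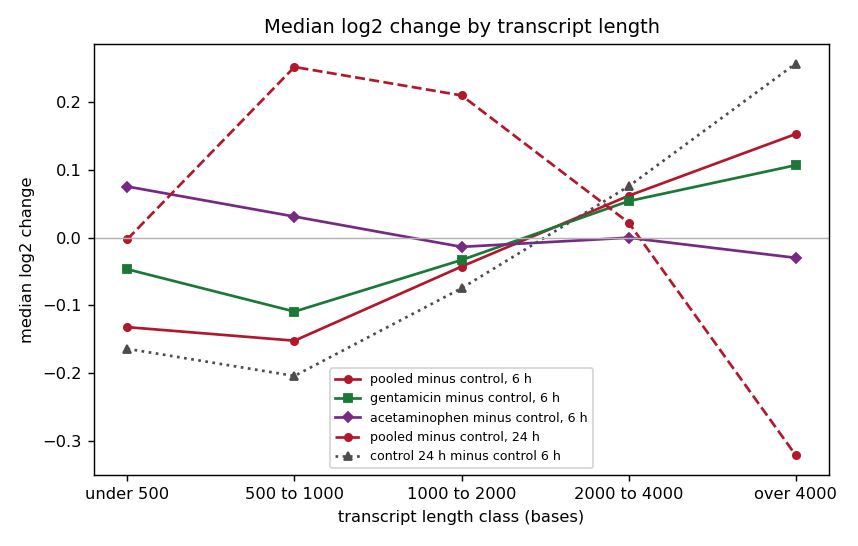
Median log2 change of the tested transcripts in 5 classes of transcript length (bases), for the pooled TCDD and trichloroethylene libraries at 6 h (solid red) and 24 h (dashed red), gentamicin and acetaminophen at 6 h, and control at 24 h against control at 6 h (dotted). The pooled 6 h line climbs from -0.13 under 500 bases to 0.15 over 4000 bases, while the 24 h line ends at -0.32.

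At an unadjusted p under 0.05, higher transcripts outnumbered lower ones in the 2 classes over 2000 bases, and lower outnumbered higher in the 3 classes under 2000 bases. Over 4000 bases, 286 transcripts were higher and 12 lower. Between 500 and 1000 bases, 55 were higher and 214 lower. Transcripts whose 6 and 2 libraries did not overlap at all were split between the classes in the same way. In the full set 1387 (8.67%) had all 6 exposed libraries above both controls and 1249 (7.81%) had all 6 below. Among transcripts over 4000 bases these shares were 23.7% above and 0.626% below, and among those of 500 to 1000 bases 3.89% above and 21.8% below.

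**Figure D3:**
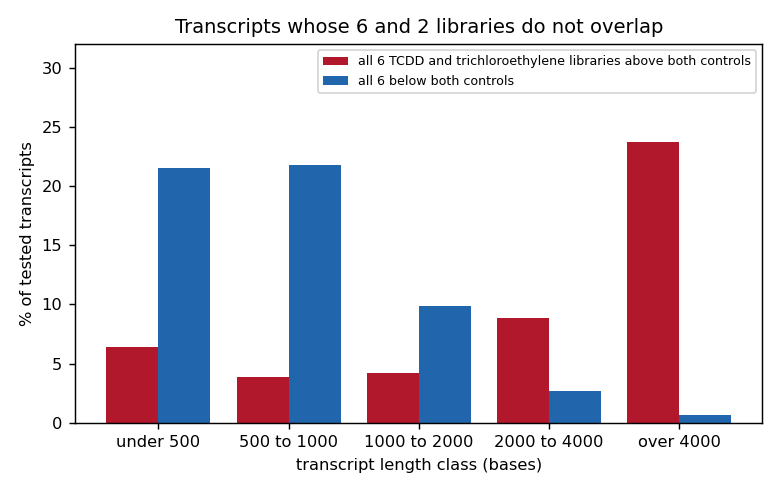
Share of the tested transcripts in each length class (bases) with all 6 TCDD and trichloroethylene libraries above both controls (red) or below both (blue) at 6 h. Over 4000 bases 23.7% lie above and 0.626% below, and under 500 bases 6.39% lie above and 21.5% below.

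The order of the classes differed with expression level. Among the most abundant of 4 equal groups of transcripts, the class medians ran from -0.396 under 500 bases to 0.149 over 4000 bases. Among the least abundant they were 0.0709 under 500 bases, 0.0308 from 500 to 1000 bases and 0.315 over 4000 bases. Short transcripts were thus below the controls at high level, while no class of the least abundant group had a median below 0.

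Each library was then given a single measure, the slope of its log2(CPM + 1), as the deviation from the mean of the 8 libraries, on log2 transcript length. The slopes were -0.0148, -0.00106 and 0.0574 in the TCDD libraries, 0.027, 0.0429 and -0.00422 in the trichloroethylene libraries and -0.0614 and -0.0458 in the controls. All 6 exposed libraries lay above both controls. The mean was 0.0179 ± 0.0289 in the exposed libraries and -0.0536 ± 0.011 in the controls (SD, n = 6 and 2), a difference of 0.0715 with an exact two-sided permutation p of 0.0714. Without TCDD replicate 3 the difference was 0.0636. The p of 0.0714 is the smallest that 6 against 2 libraries allow, so the test could not reach 0.05, and the value adjusted over the 12 permutation tests was 0.214. Between TCDD and trichloroethylene the mean slopes, 0.0139 ± 0.0384 and 0.0219 ± 0.024 (SD, n = 3 each), differed by less than their spread (exact permutation p = 0.9).

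**Figure D4:**
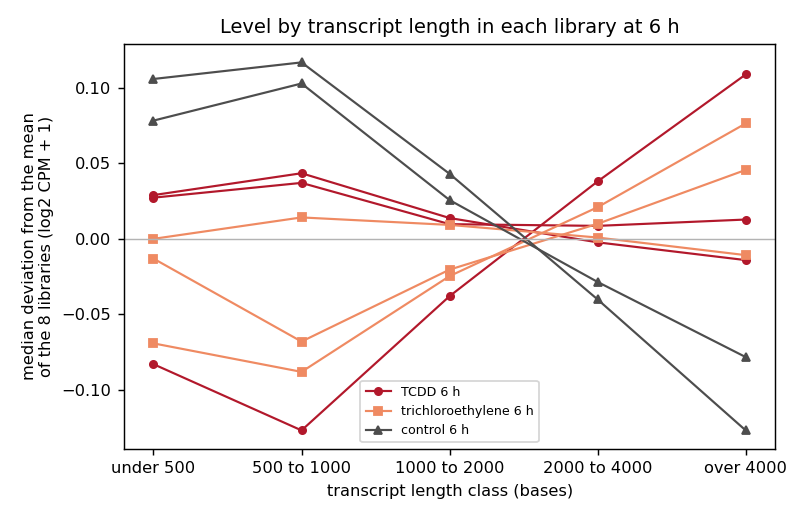
Median deviation of each of the 8 libraries from their mean, in log2(CPM + 1), by class of transcript length (bases), for TCDD (circles), trichloroethylene (squares) and control (triangles) at 6 h. Among the 8 libraries, the controls have the highest values under 500 bases (0.106 and 0.0784) and the lowest over 4000 bases (-0.127 and -0.0784). TCDD replicate 3 has the lowest value under 500 bases (-0.0831) and the highest over 4000 bases (0.109).

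Slopes outside the 8 libraries put the controls in context. The acetaminophen libraries at 6 h had slopes of -0.0671, -0.0685 and -0.0535, all below the 6 exposed libraries (difference of means, pooled minus acetaminophen, 0.0809; exact permutation p = 0.0238, adjusted 0.143). The gentamicin libraries had -0.0268, -0.0151 and 0.0182, overlapping the TCDD and trichloroethylene libraries and all above the controls (pooled minus gentamicin 0.0257, exact permutation p = 0.214). Control libraries at 24 h had 0.088, 0.0749 and 0.00116. The 2 controls at 6 h thus lay at the low end of these groups together with acetaminophen.

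The mean fragment length, read from the gap between transcript length and effective length, did not part the groups. It was 251, 255 and 279 bases in the TCDD libraries, 270, 279 and 272 bases in the trichloroethylene libraries and 258 and 264 bases in the controls. The groups overlapped, with TCDD replicates 1 and 2 below both controls, and the means of 268 ± 12 and 261 ± 4.31 bases (SD, n = 6 and 2) differed by 6.5 bases (exact permutation p = 0.5). Across the 8 libraries the slope on length correlated with fragment length at r = 0.707 (permutation p = 0.0554) and rho = 0.667 (permutation p = 0.0831). Without TCDD replicates 1 and 2, the libraries farthest from the median fragment length, r was 0.948. Within the 6 exposed libraries r was 0.834 (exact permutation p = 0.0333) and rho 0.771 (p = 0.103), with r = 0.77 after the same 2 were left out, and all 4 values adjusted over this family were 0.103. With each library's fragment length in the model, the difference between the shortest and the longest class was -0.246, and with effective length as an offset it was -0.258. The part of fragment length in the length pattern was not tested beyond these values.

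Length was next followed to 24 h, in libraries that the 6 h comparison does not use. Pooled in the same way, TCDD and trichloroethylene at 24 h changed 7476 transcripts (46.8%) against the 3 controls of that time, of which 4079 (25.5%) rose and 3397 (21.2%) fell. Long transcripts were now lower: the median log2 change was -0.32 over 4000 bases and 0.25 between 500 and 1000 bases. Under 500 bases it was -0.00217, so the classes did not run in 1 order from short to long. TCDD alone (10701 transcripts called, 66.9%) had a median of -0.606 over 4000 bases and 0.0204 under 500 bases. Trichloroethylene alone (6505 called, 40.7%) had -0.138 and -0.149 in those classes, so its longest class was not below its shortest. Mean fragment length was 246 ± 12.4 bases in the exposed libraries and 280 ± 9.6 bases in the controls at 24 h (SD, n = 6 and 3; exact permutation p = 0.0238, adjusted 0.143), and with fragment length as a covariate edgeR called 2985 transcripts.

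The transcripts with an unadjusted p under 0.05 at 6 h mostly ran the other way among those called at 24 h. Of the 899 higher at 6 h, 129 (14.3%) rose at 24 h and 342 (38%) fell. Of the 651 lower at 6 h, 267 (41%) rose at 24 h and 53 (8.14%) fell. Among all tested transcripts the shares were 25.5% and 21.2%, as given above. The 899 had a median length of 3000 bases and the 651 a median of 1060, beside 2020 for all tested transcripts. In all 5 length classes more of the higher transcripts fell than rose at 24 h. More of all tested transcripts also fell than rose under 500 bases (130 and 109) and over 4000 bases (830 and 255). In the classes between, more of all tested transcripts rose. Over 4000 bases 51.4% of the higher transcripts fell, beside 37.1% of all in that class. Of the 351 that were higher and 2000 to 4000 bases long, 18.5% rose and 30.5% fell, where 24.8% and 22.4% of all transcripts in that class did. More of the lower transcripts rose than fell in each class but the longest, which held 12 of them. From 500 to 4000 bases all tested transcripts had that order too. Between 500 and 1000 bases 43.9% of the lower transcripts rose and 4.21% fell, beside 29.5% and 12.9% of all in that class.

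The same lists, read in comparisons that share the 6 h controls, gave medians of the same sign as the pooled change. For the 899 higher and the 651 lower transcripts, the median log2 change with gentamicin at 6 h was 0.35 and -0.25, that with acetaminophen 0.24 and -0.03, and that of control at 24 h against control at 6 h 0.58 and -0.52. The 2 control libraries that chose the lists also enter these values, so they are given side by side and carry no support.

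The levels behind the pooled comparison are shown by 4 transcripts. They had the smallest p of their direction among transcripts of at least 1000 bases with at least 10 counts in each of the 8 libraries and no overlap between the 6 and the 2. None passed in edgeR, and 2 passed in DESeq2. Since the lack of overlap chose all 4, it is a description. No gene is named for them in the sources used here.

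ENSRNOT00000038939, 1914 bases long, was at 4.77, 3.79 and 5.41 TPM in the TCDD libraries, 5.11, 5.82 and 5.44 TPM in the trichloroethylene libraries and 2.88 and 2.05 TPM in the controls. All 6 exposed libraries were above both controls, and the trichloroethylene libraries lay closest together. The pooled log2 change was 0.90 ± 0.18 (SE, 95% interval 0.53 to 1.27, edgeR adjusted p = 0.28). Alone, trichloroethylene gave 1.02 (adjusted p = 0.13) and TCDD 0.77 (adjusted p = 0.7) in edgeR. Against the same controls at 6 h, acetaminophen gave 1.10 (edgeR adjusted p = 2.9e-05) and gentamicin 0.70 (edgeR adjusted p = 0.016), both called. The pooled libraries minus gentamicin gave 0.21 (edgeR adjusted p = 0.35), so the higher level was not particular to TCDD and trichloroethylene. In DESeq2 the pooled adjusted p was 0.038, and it ran from 0.038 to 0.75 over the alternatives. At 24 h the level was 4.67 to 5.99 TPM with TCDD, 3.43 to 4.21 TPM with trichloroethylene and 4.58 to 6.59 TPM in controls, a pooled log2 change of -0.03 ± 0.21 (edgeR adjusted p = 0.92). The difference in effect between the times, 24 h minus 6 h, was called for 49.2% of all tested transcripts and was -0.99 ± 0.22 here (edgeR adjusted p = 0.00068). TCDD and trichloroethylene differed in sign at 24 h, with 0.36 (adjusted p = 0.047) and -0.54 (adjusted p = 0.0091) in edgeR.

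ENSRNOT00000073927, 3087 bases long, was at 3.29, 2.71 and 3.42 TPM with TCDD, 3.27, 3.74 and 2.14 TPM with trichloroethylene and 1.38 and 1.62 TPM in the controls. Trichloroethylene replicate 3 was the lowest of the exposed libraries and still above both controls. The pooled log2 change was 0.90 ± 0.21 (SE, 95% interval 0.47 to 1.33, edgeR adjusted p = 0.48), and DESeq2 gave an adjusted p of 0.048 in a range of 0.048 to 0.97 over the alternatives. At 24 h it was at 3.31 to 5.68 TPM with TCDD, 3.87 to 4.81 TPM with trichloroethylene and 1.93 to 3.72 TPM in controls. The effect had the same sign as at 6 h and was called: the pooled log2 change was 0.77 ± 0.19 (edgeR adjusted p = 0.0025), with 1.00 for TCDD and 0.51 for trichloroethylene, both called. The largest difference of this transcript at 6 h was with acetaminophen, at 16.3 to 18.4 TPM and a log2 change of 3.55 ± 0.22 (edgeR adjusted p = 2e-12). Gentamicin at 6 h was also called, at 1.04 (edgeR adjusted p = 0.0034).

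ENSRNOT00000073951, 1384 bases long, had the smallest p of the lower transcripts within these limits. It was at 3.62, 3.02 and 3.1 TPM with TCDD, 2.51, 3.64 and 2.24 TPM with trichloroethylene and 3.71 and 6.22 TPM in the controls. Trichloroethylene replicate 2 was just under control replicate 2, and the 2 controls differed more from each other than the exposed libraries did. The pooled log2 change was -0.85 ± 0.23 (SE, edgeR adjusted p = 0.51), and -0.45 without control replicate 3. At 24 h it was at 2.44 to 3.36 TPM with TCDD, 1.79 to 2.14 TPM with trichloroethylene and 1.45 to 2.71 TPM in controls, a pooled log2 change of 0.48 ± 0.30 (edgeR adjusted p = 0.19). TCDD alone was called higher at 24 h, at 0.92 (edgeR adjusted p = 0.003), the opposite sign to 6 h. Trichloroethylene alone was not called, at -0.13 (edgeR adjusted p = 0.76). The pooled effect at 24 h minus that at 6 h was called, at 1.25 ± 0.33 (edgeR adjusted p = 0.003).

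ENSRNOT00000064114, 1409 bases long, had the highest level of the 4. It was at 57.9, 52.9 and 43.1 TPM with TCDD, 47.3, 46.7 and 55.2 TPM with trichloroethylene and 69.9 and 63.4 TPM in the controls, so both controls were above all exposed libraries. The pooled log2 change was -0.53 ± 0.16 (SE, edgeR adjusted p = 0.51). At 24 h it was at 8.98 to 10.6 TPM with TCDD, 17.2 to 20.5 TPM with trichloroethylene and 23.9 to 26.9 TPM in controls, with all 6 exposed libraries below the controls. It fell by 0.70 ± 0.18 on the log2 scale in the pooled libraries (edgeR adjusted p = 0.0036), and by 1.00 with TCDD alone. With trichloroethylene alone the change was -0.46 (edgeR adjusted p = 0.052). Taking out the length trend of each library left its 6 h change at -0.47 and those of the other 3 at 0.92, 0.85 and -0.78.

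All 4 transcripts also differed between the controls of 24 h and 6 h. The log2 changes, 24 h minus 6 h, were 0.96 for ENSRNOT00000038939, 0.83 for ENSRNOT00000073927, -1.41 for ENSRNOT00000073951 and -1.54 for ENSRNOT00000064114, each called by edgeR and each of the same sign as the pooled change at 6 h. At 6 h, ENSRNOT00000073951 was called lower with acetaminophen (-0.71, edgeR adjusted p = 0.03) but not with gentamicin (-0.38, edgeR adjusted p = 0.4). ENSRNOT00000064114 was called with neither, at 0.34 with acetaminophen and -0.28 with gentamicin. All of these changes rest on the same 6 h controls.

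A further transcript of 5549 bases, chosen after its values were seen, was the one called in the fit of the 8 libraries alone (edgeR adjusted p = 0.015). It had 0 counts in both controls and between 35 and 77 counts in the 6 exposed libraries, or 0.942 to 2.06 TPM. Set against a floor of 3 counts per control library, it was at least 19.3-fold higher in the exposed libraries. In the fit over all 29 libraries its adjusted p was 0.28. It had between 15 and 166 counts in each of the 27 other libraries of the series, so the 2 controls at 6 h were the ones without it. In all, 3 transcripts had no count in these controls and a count in each of the 27 others. With at least 10 counts in each library of 1 side and none on the other, this was the only transcript, and 0 were present in the controls and silent in the exposed libraries. Reads of transcripts with near-identical sequence were divided between them by the authors' tool, so an all-or-none value of a single transcript may be a different division of such reads, which was not tested.

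**Figure D5:**
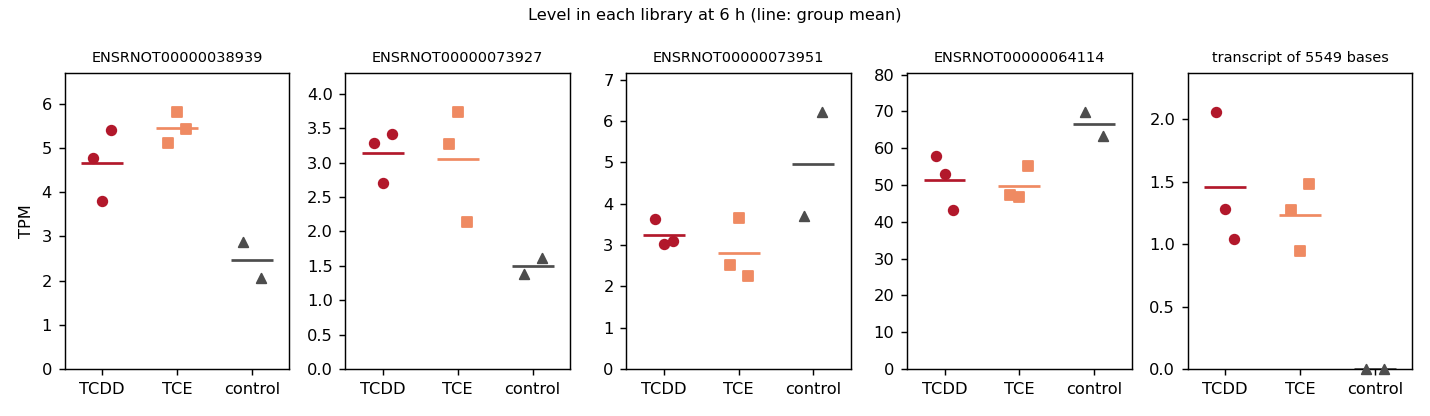
Level in TPM in each library at 6 h with TCDD (circles), trichloroethylene (TCE, squares) or control (triangles), with the group mean as a line, for the 4 named transcripts and the transcript of 5549 bases. In each panel the 6 exposed libraries lie on 1 side of both controls, and none of the 5 transcripts passed the edgeR test over all 29 libraries.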

How the data were processed

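RNA of 29 libraries was extracted with TRIzol and freed of DNA, per the labels' protocols. The authors used kallisto 0.43, per the submitters' processing notes. Per the file headers, each deposited table lists 28420 transcripts with an estimated count (20% of these expected counts were not whole within 1e-06), a length, an effective length and a TPM value. TPM is, per the file headers, the authors' own scaling to length and library total. The transcript set, strand setting and trimming were not stated in the sources used here. The reference table gave 0 Ensembl identifiers, so 0 transcripts were matched to genes, and the gene lists, marker lists and sequences planned for were not used.

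Counts were rounded, filtered with filterByExpr (minimum count 10, which kept 99.95% of counts) and scaled with TMM. edgeR 4.0.16 in R 4.3.3 fitted a robust quasi-likelihood model over all 29 libraries, with TCDD and trichloroethylene sharing 1 coefficient (20 residual degrees of freedom), or with all 10 groups apart (19) for single compounds. Calls were made at an adjusted p (Benjamini-Hochberg) under 0.05. Fragment length is transcript length minus effective length plus 1, averaged over transcripts of at least 1000 bases. Slopes used log2(CPM + 1). Permutation tests were exact and two-sided (scipy 1.17.1). The steps were tested on simulated counts. No replicates were duplicates: chi-square per degree of freedom was at least 3.07.

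Library totals ran from 8243698 to 11446612 estimated counts, and counting error is one part of the SE given. The named transcripts are the 2 higher and 2 lower with the smallest pooled p under the limits given with them. Alternatives were DESeq2 1.42.0, limma 3.58.1 on log2(TPM + 1), other scalings, filters and sets of libraries, length terms, a replicate block and leaving out each library. The members, lists and tests were chosen with earlier results of these data known.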

Additional observations from a re-analysis of the deposited data

Results flagged for a closer look

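The pooled effect differed between 6 h and 24 h for 2 of the 4 named transcripts, by an interaction contrast in edgeR. The same contrast was called for 49.2% of all tested transcripts, so 2 of 4 is no more than that background. For ENSRNOT00000038939 the effect at 24 h minus that at 6 h was -0.99 on the log2 scale (adjusted p = 0.00068). For ENSRNOT00000073951 it was 1.25 (adjusted p = 0.003). Both were chosen for a small p at 6 h, whose effect enters the difference. For the transcript of 5549 bases the same contrast gave an edgeR adjusted p of 0.00099. It was picked for having no count in the 6 h controls and counts in all 6 exposed libraries, and the contrast uses those values, so this p is a description and supports nothing. Its pooled log2 change at 24 h was 0.24 ± 0.49.

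The mean slope of level on transcript length was higher with TCDD than in controls at 6 h, by 0.0675, and lower at 24 h, where TCDD minus control was -0.188. At each time every TCDD library lay on the same side of all controls of its time. The difference between the times was not tested. In 9 measures of the 6 exposed libraries (slopes, fragment lengths, totals, first component and 5 transcript levels) 0 libraries stood apart by Dixon's ratio, which chance passes in about 1 group in 20.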

How the results depend on the processing

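The length difference between classes, the differences in slope and fragment length and the changes of the named transcripts kept their sign under every alternative. Counts of calls have no sign, so a reversal could not be recorded for them. The pooled 6 h count of 0 was 15 with DESeq2, all higher in the exposed libraries. With only the 8 libraries it was 1, also higher (and 1 as a mean of both compounds, added after the data were seen). When libraries were left out it was 0 to 8, with 8 without TCDD replicate 1, all lower. The calls with DESeq2 and those without TCDD replicate 1 thus had opposite directions. Under every other alternative run the pooled count was 0. The count for neither compound alone was 5 with DESeq2 and 0 to 6 with left-out libraries. TCDD alone gave 8 with DESeq2 and 0 to 3 with left-out libraries. TCDD against trichloroethylene gave 5 and 0 to 1. Trichloroethylene alone gave 24 with DESeq2, 8 with limma, 0 to 2 with left-out libraries and, added after the data were seen, 450 with only its 5 libraries, 120 with the length trend also taken out and 330 with the effective length offset. The causes were not tested. The shortest class minus the longest was -0.285, -0.147 without a low-count filter and -0.0249 with the length trend taken out, which removes it by construction. The 24 h count was 2985 with the fragment length covariate, whose values did not overlap between exposed and control libraries at that time.

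The replicate numbers did not pair the libraries: same-numbered TCDD and trichloroethylene libraries correlated at -0.02, -0.14 and -0.26, and with controls at -0.05 to 0.07. With the replicate block the pooled 6 h count was 0, the length difference -0.297 and the 24 h count 7158 in place of 7476. A control group of 2 libraries limits what any 6 h comparison can show.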
